A study of Mus musculus with 6 samples.

Results

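The genes described here are 10 of the 54167 genes in the deposited table, taken by name as the Reg lectins and acute-phase antimicrobial proteins of the colon: the lectins *Reg3b*, *Reg3g*, *Reg3a*, *Reg1* and *Reg4*, the serum amyloid A genes *Saa1*, *Saa2* and *Saa3*, the siderophore-binding lipocalin *Lcn2*, and *Lypd8*. They were grouped because the same RNA-seq values had shown some of them apart between genotypes, so their differences are given as a description, without p-values, and the count of those past the threshold of the fit is given beside the share of all genes, with nothing read from it. All 10 had a row, and 8 passed the filter on low values, at least 1 TPM in at least 3 tumors, leaving *Reg3a* and *Reg1* below it. TPM are read numbers divided by transcript length and scaled to one total per tumor, so that levels of different genes can be compared within a tumor. The samples were 6 colorectal tumors, 3 from Trp53fl/fl mice and 3 from VP mice. Trp53fl/fl mice are homozygous for a *Trp53* allele flanked by loxP sites and carry no Cre in this comparison. VP mice carry the same 2 floxed alleles plus Pvillin-Cre, which removes *Trp53* in epithelial cells of the intestine and leaves it in stromal, immune and endothelial cells of the same tumor. The labels give the strain of all 6 samples as C57BL/6J. According to the methods, male mice were injected at 8 weeks of age with 10 mg/kg azoxymethane (AOM), a carcinogen of the colon. They then drank 2.5% dextran sulfate sodium (DSS), which injures and inflames the colon epithelium, for 7 days in each of several cycles, and tumors were dissected on day 98. Both groups therefore came from inflamed, carcinogen-treated colons, and neither was a healthy or untreated control.

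Reg lectins are small secreted C-type lectins. *Reg3b* and *Reg3g* are released by intestinal epithelial cells and Paneth cells and bind bacterial surface carbohydrates, and *Reg3g* kills Gram-positive bacteria and keeps them away from the mucosa. Their genes are switched on by IL-22 and IL-6 through STAT3 and by microbial signals. *Reg4* is made by deep crypt secretory cells of the colon and by enteroendocrine cells, and *Reg1* and *Reg3a* are abundant in the pancreas and in the injured gut. Serum amyloid A proteins are retinol- and lipid-binding acute-phase proteins. *Saa1* and *Saa2* are made in the liver and in colon epithelium, and *Saa3* also in macrophages and fat. *Lcn2* withholds iron from bacteria by binding their siderophores and is made by epithelium and stored in neutrophil granules. *Lypd8* is a membrane-anchored protein of colonocytes that binds flagella and holds motile bacteria off the epithelium.

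*Trp53* (ENSMUSG00000059552), read first as a check of the labels, was at 124.94, 99.3 and 147.45 TPM in the Trp53fl/fl tumors against 38.45, 32.79 and 27.83 TPM in VP tumors. It fell in the VP tumors by 1.87 on the log2 scale (SE 0.18, limma adjusted p = 0.0207), and the adjusted p was 0.0284 to 0.0986 with 1 tumor left out. Columns summed to between 999964 and 1000067 TPM and held 14857 to 15234 genes at 1 TPM or more. TPM keep no read numbers, so depth is unknown and values carry no counting error. Sums of 12 pan-epithelial markers, among them *Epcam* and *Krt8*, were 9324 to 9662 TPM in the Trp53fl/fl tumors and 10032 to 11338 TPM in the VP tumors. Epithelial transcripts were thus abundant in every tumor, and their sum was higher in every VP tumor. Single markers mostly overlapped between genotypes, among them *Epcam* (log2 fold change 0.003) and *Krt8* (0.10). Tumors did not overlap for 2 of the 12, both higher in VP. In whole tumors, fewer cells of a type and less RNA per cell cannot be told apart.

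*Reg3b*, *Reg3a*, *Reg1* and *Reg3g* lie on chromosome 6 in a stretch of 98.2 kb, with the related genes *Reg3d* and *Reg2* between them. In the GENCODE M21 annotation of GRCm38, *Reg3b* spans chr6:78370657-78373466 on the plus strand and *Reg3g* spans chr6:78466269-78468872 on the minus strand. *Saa3* (chr7:46711998-46715700, minus strand), *Saa1* (chr7:46740497-46742980, minus strand) and *Saa2* (chr7:46751790-46754313, plus strand) lie within 42.3 kb of chromosome 7. *Lcn2* (chr2:32384633-32388252), *Reg4* (chr3:98222156-98236748) and *Lypd8* (chr11:58379043-58390728) stand alone, *Lypd8* at 11.2 Mb from *Trp53* on the same chromosome. No annotated gene overlapped any of the 10. Sequence before the start is shown for *Reg3b*, *Reg3g*, *Saa1*, *Saa2* and *Saa3*, and not for *Reg3a* and *Reg1*, which lie between *Reg3b* and *Reg3g*. The sequences were taken from RefSeq (GRCm38.p6), written 5′ to 3′ on the strand of each gene, and positions count from the RefSeq transcript start, with -1 the base before it. Capitals mark a match to 1 of 3 short motifs searched on both strands, TTCNNNGAA (STAT), TTGCNNAA (C/EBP) and, for NF-kB, GGGA and CC with NNNN between them. None of the motif matches was overlapped by another.

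The stretches of *Reg3b* and *Reg3g*, from -160 to -30, were chr6:78370725-78370855 and chr6:78468904-78469034. Each is 131 bases long, and that of *Reg3b* lies in an intron of a longer GENCODE transcript.
Reg3b: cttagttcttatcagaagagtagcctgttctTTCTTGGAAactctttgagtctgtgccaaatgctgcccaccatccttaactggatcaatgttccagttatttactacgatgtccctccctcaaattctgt
Reg3g: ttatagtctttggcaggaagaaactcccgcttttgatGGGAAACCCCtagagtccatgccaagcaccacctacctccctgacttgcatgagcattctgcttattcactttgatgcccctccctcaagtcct
The stretches of *Saa1* and *Saa2*, from -200 to -50, were chr7:46743030-46743180 and chr7:46751633-46751783, and that of *Saa3*, from -120 to -30, was chr7:46715706-46715796.
Saa1: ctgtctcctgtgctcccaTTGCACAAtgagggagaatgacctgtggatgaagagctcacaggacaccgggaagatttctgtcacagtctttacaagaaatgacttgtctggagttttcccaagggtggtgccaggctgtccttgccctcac
Saa2: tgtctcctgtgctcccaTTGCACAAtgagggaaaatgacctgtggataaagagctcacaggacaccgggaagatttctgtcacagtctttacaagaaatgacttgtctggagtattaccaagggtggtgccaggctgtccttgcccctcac
Saa3: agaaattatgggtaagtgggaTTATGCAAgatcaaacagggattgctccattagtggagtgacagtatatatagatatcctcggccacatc
In the 250 bases before the start, the STAT motif was found in the promoter of *Reg3b* alone among the 11 promoters of the 10 genes (*Lypd8* has 2), at -129 to -121, and in 7.02% of 32851 promoters. The C/EBP motif was found in 5, those of *Saa1*, *Saa2*, *Saa3*, *Lcn2* and *Reg3a*, and in 9.56% of all promoters. The NF-kB motif was found in 2, those of *Reg3g*, at -123 to -114, and *Lypd8*, and in 17.6% of all promoters. A match is a run of letters and not a measured binding site. Over the 250 bases before the start, the promoters of *Reg3b* and *Reg3g* were identical at 68.4% of aligned positions, and those of *Saa1* and *Saa2* at 94.8%.

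Among the Reg lectins, *Reg3b* set the genotypes furthest apart. *Reg3b* was at 63.58, 86.93 and 43.66 TPM in the Trp53fl/fl tumors against 535.64, 553.08 and 382.92 TPM in VP tumors. The genotypes did not overlap, and the lowest VP tumor was 4.40 times the highest Trp53fl/fl tumor. The means were 64.7 ± 21.7 TPM (SD, n = 3) and 491 ± 93.6 TPM (SD, n = 3), a ratio of 7.58 and a log2 fold change of 2.94 (SE 0.26) on the log2(TPM + 1) scale. By rank, *Reg3b* stood at places 1667 to 3439 among all genes in the Trp53fl/fl tumors and at places 273 to 370 in the VP tumors.

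*Reg3g*, the Gram-positive-killing paralog at the other end of the 98.2 kb cluster, was at 549.02, 99.51 and 80.78 TPM in the Trp53fl/fl tumors against 967.64, 433.23 and 847.21 TPM in VP tumors. Here the genotypes overlapped, because Trp53fl/fl replicate 1 lay above VP replicate 2, while the other Trp53fl/fl tumors lay below every VP tumor. The means were 243 ± 265 TPM (SD, n = 3) and 749 ± 280 TPM (SD, n = 3), and the log2 fold change of 2.10 had an SE of 0.71. The genotypes did not overlap without Trp53fl/fl replicate 1, at a log2 fold change of 2.97, or without VP replicate 2, at 2.45. The SD of the Trp53fl/fl tumors was 109% of their mean for *Reg3g* and 33.5% for *Reg3b*. The tumors of the genotypes thus stood apart for *Reg3b* and overlapped for *Reg3g*.

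The ratio of the *Reg3b* level to the *Reg3g* level was 0.116, 0.874 and 0.540 in the Trp53fl/fl tumors and 0.554, 1.28 and 0.452 in the VP tumors. The pair therefore had no fixed ratio within a genotype, and the ratios of the genotypes overlapped. In Trp53fl/fl replicate 1 *Reg3g* was high and *Reg3b* was not. The coding sequences of *Reg3b* (525 bases) and *Reg3g* (522 bases) were identical at 76.0% of aligned positions, and no run of 150 bases was shared between their GENCODE transcripts.

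*Reg4* went the other way. *Reg4* was at 828.2, 876.91 and 675.93 TPM in the Trp53fl/fl tumors against 503.02, 366.77 and 618.2 TPM in VP tumors. Every VP tumor was below every Trp53fl/fl tumor, with VP replicate 3 closest. The means were 794 ± 105 TPM (SD, n = 3) and 496 ± 126 TPM (SD, n = 3), a log2 fold change of -0.70 (SE 0.21). Deep crypt secretory and goblet markers, the list closest to the cells that make *Reg4*, summed to 8191 to 9775 TPM in the Trp53fl/fl tumors and to 8606 to 12197 TPM in the VP tumors, and these sums overlapped. The sums are carried by a few abundant genes, among them *Spink4* at 3341 to 5219 TPM and *Tff3* at 1322 to 2606 TPM. Of the 12 markers, 8 had a lower mean log2 value in the VP tumors, as did 9187 of all 15117 genes tested. The median log2 fold change was -0.14 for the markers and -0.07 for all genes tested. *Clca1*, a goblet cell product named after its values were seen, was lower in every VP tumor, as *Reg4* was (-1.54 on the log2 scale, limma adjusted p = 0.269). It was the only 1 of the 12 markers whose tumors did not overlap between genotypes, against 19.3% of all genes tested.

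The shares of *Reg4* and *Reg3b* among the Reg lectin transcripts separated the genotypes, whereas their sum and the share of *Reg3g* did not. The 5 genes together reached 1441, 1064 and 800 TPM in the Trp53fl/fl tumors and 2008, 1355 and 1849 TPM in the VP tumors, and these sums overlapped. *Reg4* was 57.5%, 82.4% and 84.5% of that sum in the Trp53fl/fl tumors and 25.1%, 27.1% and 33.4% in the VP tumors. *Reg3b* was 4.41%, 8.17% and 5.45% of it in the Trp53fl/fl tumors and 26.7%, 40.8% and 20.7% in the VP tumors. Neither share overlapped between genotypes. The share of *Reg3g* did overlap, at 38.1%, 9.36% and 10.1% in the Trp53fl/fl tumors and 48.2%, 32.0% and 45.8% in the VP tumors. The level of *Reg4* was 10.1 to 15.5 times that of *Reg3b* in the Trp53fl/fl tumors and 0.663 to 1.61 times that of *Reg3b* in the VP tumors. These ratios are taken within a tumor and do not depend on how tumors were scaled to each other.

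**Figure D1:**
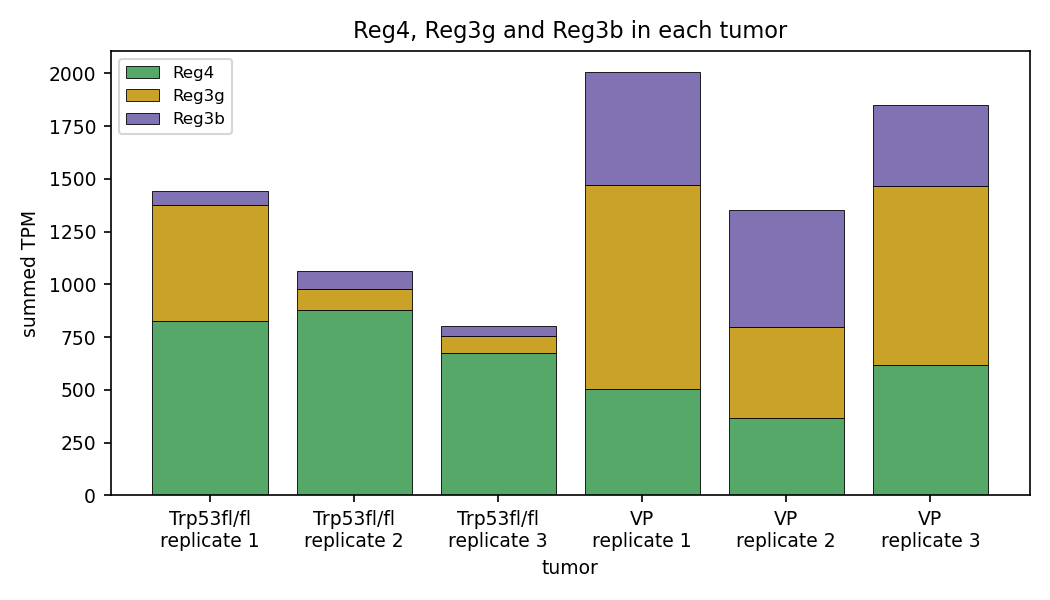
Stacked bars give the TPM of *Reg4*, *Reg3g* and *Reg3b* in each of the 6 tumors. *Reg4* fills 57.5% to 84.5% of the Reg lectin sum in the Trp53fl/fl tumors and 25.1% to 33.4% in the VP tumors, and Trp53fl/fl replicate 1 differs from the others of its genotype by its *Reg3g*.

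The pancreas-type Reg genes were close to silent. *Reg3a* was at 0.12 TPM in Trp53fl/fl replicate 1, was listed at 0 in the other two Trp53fl/fl tumors, and was at 0.32, 0.32 and 0.24 TPM in the VP tumors. *Reg1* was at 0.13, 0.27 and 0 TPM in the Trp53fl/fl tumors against 1.3, 1.29 and 0.27 TPM in VP tumors. All values lay at or below 1.3 TPM, and no test was made. The remaining genes of the cluster, *Reg2* and *Reg3d*, stayed under 1 TPM in every tumor. Thus *Reg3b* and *Reg3g*, at the ends of the cluster, were expressed in every tumor, and the 4 genes between them were at 1.3 TPM or less.

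**Figure D2:**
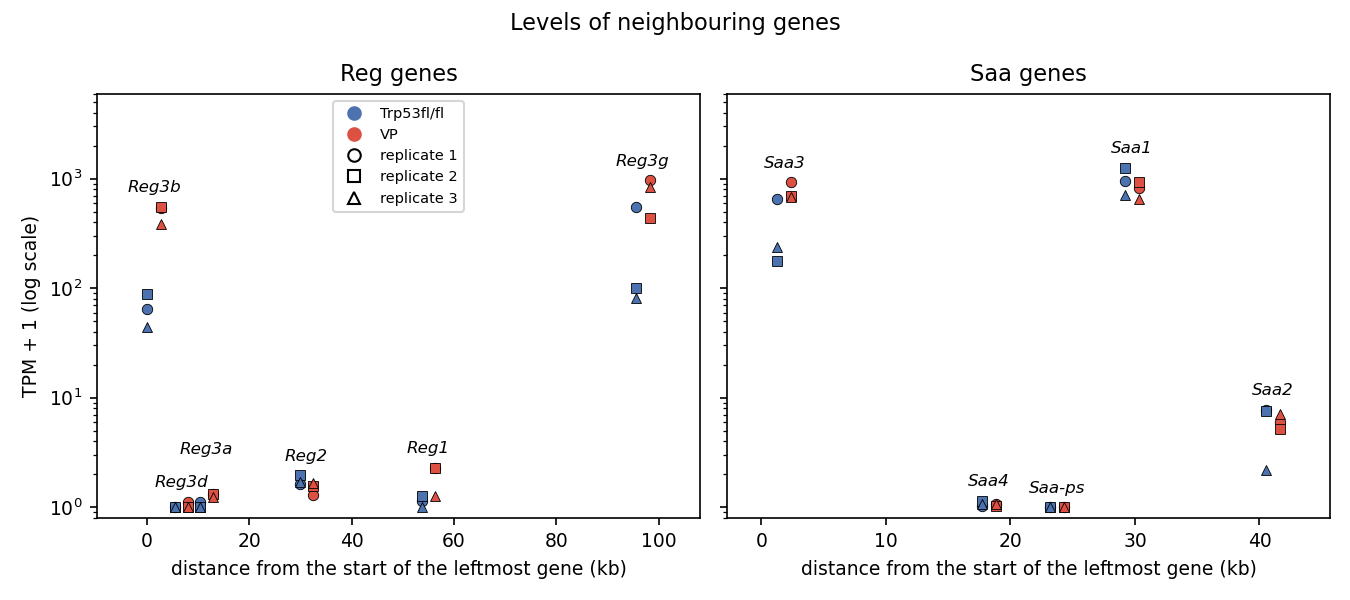
Each panel plots TPM + 1 on a log scale against distance along the chromosome in kb for the Reg genes and the *Saa* genes, with 1 symbol per tumor and the genotypes set slightly to the left and right of each gene. *Reg3b* and *Reg3g* stand at the ends of a cluster whose other genes lie near 1, and *Saa3* and *Saa1* stand far above *Saa4*, *Saa-ps* and *Saa2*.

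The serum amyloid A genes did not move as a unit. *Saa3* was at 649.72, 176.05 and 237.55 TPM in the Trp53fl/fl tumors against 924.11, 690.17 and 674.75 TPM in VP tumors. The genotypes did not overlap, but the lowest VP tumor was only 1.04 times the highest Trp53fl/fl tumor, which was again replicate 1. The means were 354 ± 258 TPM (SD, n = 3) and 763 ± 140 TPM (SD, n = 3), a log2 fold change of 1.32 (SE 0.45).

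*Saa1*, the main serum amyloid A transcript of the Trp53fl/fl tumors, was at 958.4, 1262.55 and 715.13 TPM there against 815.94, 928.61 and 646.57 TPM in VP tumors. The genotypes overlapped, and the log2 fold change of -0.27 was near its SE of 0.23. *Saa2* was at 6.72, 6.59 and 1.17 TPM in the Trp53fl/fl tumors against 5.01, 4.22 and 6.17 TPM in VP tumors. These overlapped too, with a log2 fold change of 0.27 (SE 0.48), and the value turned to -0.33 without Trp53fl/fl replicate 3. *Saa4* stayed under 1 TPM and the pseudogene *Saa-ps* was listed at 0 in every tumor.

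The level of *Saa3* was 0.678, 0.139 and 0.332 times that of *Saa1* in the Trp53fl/fl tumors and 1.13, 0.743 and 1.04 times that of *Saa1* in the VP tumors. This ratio did not overlap between genotypes, so the share of *Saa3* among serum amyloid A transcripts was higher in every VP tumor. *Saa1* stood 105 to 611 times above *Saa2* although their coding sequences, of 366 bases each, were identical at 95.1% of aligned positions. Reads that fit both would be divided between the pair by the quantification, so their single levels are uncertain. No run of 150 bases was shared between the transcripts of *Saa1* and *Saa2*. Summed, *Saa1* and *Saa2* gave 965, 1269 and 716 TPM in the Trp53fl/fl tumors and 821, 933 and 653 TPM in the VP tumors, which overlapped as *Saa1* alone did.

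*Lcn2* was at 471.99, 193.9 and 412.71 TPM in the Trp53fl/fl tumors against 626.86, 724.72 and 458.01 TPM in VP tumors. The genotypes overlapped in 1 place, with Trp53fl/fl replicate 1 just above VP replicate 3. The means were 360 ± 146 TPM (SD, n = 3) and 603 ± 135 TPM (SD, n = 3), a log2 fold change of 0.82 (SE 0.34). The level of *Lcn2* was 2.41 to 3.32 times that of *S100a8*, a calprotectin subunit of neutrophils, in the Trp53fl/fl tumors and 1.02 to 1.45 times in the VP tumors.

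*Lypd8* was by far the most abundant of the 10 genes, at 5248, 7606 and 4738 TPM in the Trp53fl/fl tumors against 8680, 9454 and 8342 TPM in VP tumors. The genotypes did not overlap, and the lowest VP tumor was 1.10 times the highest Trp53fl/fl tumor. The means were 5864 ± 1530 TPM (SD, n = 3) and 8825 ± 569.9 TPM (SD, n = 3), a log2 fold change of 0.62 (SE 0.21). *Lypd8* ranked 7 to 12 among all genes in the Trp53fl/fl tumors and 5 in each VP tumor. It made up 0.474% to 0.761% of all TPM in the Trp53fl/fl tumors and 0.834% to 0.945% in the VP tumors. Mature colonocyte markers overlapped between genotypes, with sums of 1652 to 1957 TPM in the Trp53fl/fl tumors and of 1475 to 2349 TPM in the VP tumors. Each tumor was also centred on the mean log2 value of the pan-epithelial markers, which was itself higher in every VP tumor. The tumors of the genotypes then overlapped for *Saa3* and for *Lypd8*, and those of *Reg3b* and *Reg4* still did not.

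**Figure D3:**
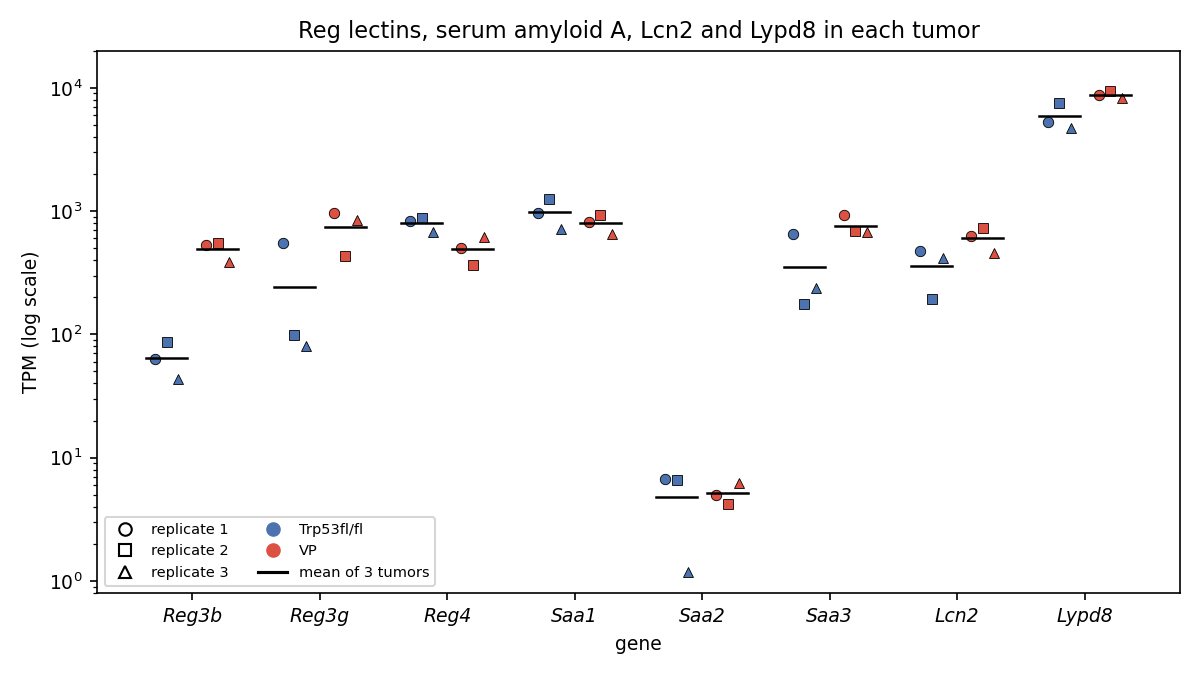
Each symbol is the TPM of 1 tumor on a log scale, with a bar at the mean of the 3 tumors of a genotype, for the 8 genes that passed the filter on low values. *Reg3b*, *Saa3* and *Lypd8* are higher in every VP tumor than in any Trp53fl/fl tumor, *Reg4* is lower, and the other 4 genes overlap.

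Of the 8 genes that passed the filter, 1 (*Reg3b*) had a limma adjusted p under 0.05, against 0.165% of the 15117 genes tested (0.0794% higher and 0.086% lower in VP), and since the genes were chosen from this contrast nothing is read from that count. It was 0 without the filter on low values and 0 when Trp53fl/fl replicate 1, VP replicate 1 or VP replicate 2 was left out. Tumors did not overlap for 3 genes higher in VP (*Reg3b*, *Saa3* and *Lypd8*), against 6.03% of all genes, and for 1 lower in VP (*Reg4*), against 13.3%, in all 19.3% of genes in either direction. The median log2 fold change was 0.72 for the 8 genes and -0.07 for all genes tested. The 2 genes below the filter, *Reg3a* and *Reg1*, are not in these counts.

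**Figure D4:**
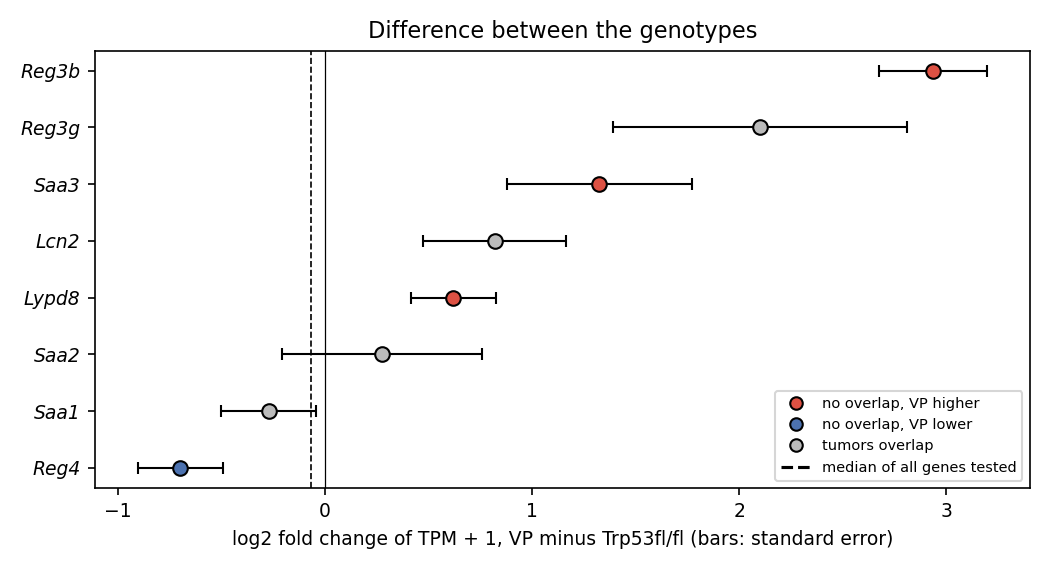
Points give the log2 fold change of TPM + 1, VP minus Trp53fl/fl, with bars for the standard error, and the dashed line marks the median of all genes tested, -0.07. *Reg3b* lies furthest to the right at 2.94, *Reg4* furthest to the left at -0.70, and the bars of *Saa2* reach across 0.

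In order of mean level, the Trp53fl/fl tumors had *Lypd8*, *Saa1*, *Reg4*, *Lcn2*, *Saa3*, *Reg3g*, *Reg3b*, *Saa2*, *Reg1* and *Reg3a*. Neighbours in this order overlapped in their tumors except where *Lypd8* stood above *Saa1*, *Reg4* above *Lcn2*, *Reg3b* above *Saa2*, and *Saa2* above *Reg1*. The VP tumors had *Lypd8*, *Saa1*, *Saa3*, *Reg3g*, *Lcn2*, *Reg4*, *Reg3b*, *Saa2*, *Reg1* and *Reg3a*. There each gene from *Saa1* to *Reg4* overlapped with the next one down, and gaps stood only below *Lypd8*, below *Reg3b* and below *Saa2*. *Reg3b* and *Reg4* were thus far apart in the Trp53fl/fl tumors and neighbours in the VP tumors.

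The genes did not share a single high tumor. Within the Trp53fl/fl genotype, replicate 1 was highest for 5 of the 10 genes (*Reg3g*, *Saa3*, *Lcn2*, *Saa2* and *Reg3a*) and replicate 2 for the other 5 (*Reg3b*, *Reg4*, *Saa1*, *Lypd8* and *Reg1*). Trp53fl/fl replicate 3 was lowest for *Reg3b*, *Reg3g*, *Reg4*, *Saa1*, *Saa2*, *Lypd8* and *Reg1*. Within the VP genotype, replicates 1 and 2 were each highest for 4 genes and replicate 3 for 2. VP replicate 3 was lowest for *Reg3b*, *Saa1*, *Saa3*, *Lcn2*, *Lypd8*, *Reg3a* and *Reg1*. By the mean absolute difference of centred log2(TPM + 1) over the 6 tumors, the gene of this group closest to *Reg3g* was *Saa3*, at 0.53, and the gene closest to *Reg3b* was *Reg3g*, at 0.77. Among all other genes tested, the 5 closest to *Reg3b* by the same measure were *AA465934* (0.21), *Gm29787* (0.31), *Plac9a* (0.34), *Ifitm6* (0.38) and *Stfa3* (0.40). *AA465934* was at 2.6, 2.03 and 1.69 TPM in the Trp53fl/fl tumors against 22.48, 26.66 and 17.04 TPM in VP tumors. *Gm29787* and *Stfa3* were listed at 0 in every Trp53fl/fl tumor and reached 3.1 to 6.21 TPM and 2.55 to 5.2 TPM in the VP tumors. These genes were picked for likeness over 6 tumors and nothing on shared control is read from them.

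The cytokine signals known to act upstream of the *Reg3* and *Saa* genes showed no change past the test. Of 37 genes tested in this list of IL-22, IL-17 and IL-6 signals, none had a limma adjusted p under 0.05. At an unadjusted p under 0.05, 10 were higher and 1 lower in the VP tumors, against 4.51% and 8% of all genes tested. *Stat3*, the transcription factor of the IL-22 and IL-6 signals, was at 102 ± 12.2 TPM (SD, n = 3) in the Trp53fl/fl tumors against 106 ± 10.6 TPM (SD, n = 3) in VP tumors. On the log2 scale it differed by 0.06 (limma adjusted p = 0.865), and the activity of its protein was not measured. *Socs3*, its feedback inhibitor, differed by 0.63 (limma adjusted p = 0.441) on that scale, and *Nfkbia*, the inhibitor of NF-kB, one of 0.48 (limma adjusted p = 0.317). *Il18*, an epithelial cytokine, differed by 0.10 (limma adjusted p = 0.802).

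The ligands and receptor chains of this list named next, and *Jak1*, were chosen for mention after their values were seen. *Il6* was at 1.7, 0.48 and 0.23 TPM in the Trp53fl/fl tumors against 6.13, 4.57 and 4.46 TPM in VP tumors, without overlap (log2 fold change 1.82, limma adjusted p = 0.123). *Osm*, which encodes the IL-6 family cytokine oncostatin M, was at 3.25, 2.08 and 3.41 TPM in the Trp53fl/fl tumors against 6.92, 7.78 and 9.38 TPM in VP tumors (log2 fold change 1.21, limma adjusted p = 0.114). Both were higher in every VP tumor, and neither passed the adjustment. Of the 37 genes, tumors did not overlap for 10 higher and 2 lower in VP, against 6.03% and 13.3% of all genes. The 2 lower were *Jak1* and *Il6st*. *Il6st* was at 34.31, 38.37 and 32 TPM in the Trp53fl/fl tumors against 26.83, 27.61 and 30.05 TPM in VP tumors (log2 fold change -0.30, limma adjusted p = 0.371). *Il22* did not exceed 0.4 TPM in any tumor. Its epithelial receptor chain *Il22ra1* was at 14.67 to 20.29 TPM in the Trp53fl/fl tumors against 21.32 to 26.66 TPM in VP tumors (limma adjusted p = 0.317).

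Among other epithelial antimicrobial genes, none of 28 tested had a limma adjusted p under 0.05. At an unadjusted p under 0.05, 18 were higher and 3 lower in the VP tumors, against 4.51% and 8% of all genes tested. The median log2 fold change was 0.69, against -0.07 for all genes tested. Of this list 4 genes (*Camp*, *Ltf*, *S100a8* and *S100a9*) are also neutrophil markers, and without them 14 of 24 were higher and 3 lower, with a median of 0.64. *Sprr2a2*, a small proline-rich protein of the epithelial surface, was at 6640 ± 1960 TPM (SD, n = 3) in the Trp53fl/fl tumors against 9471 ± 2615 TPM (SD, n = 3) in VP tumors. *Lgals4*, the galectin of the colon epithelium, differed by 0.47 on the log2 scale (limma adjusted p = 0.292), and *Zg16*, a goblet cell lectin, one of 0.80 (limma adjusted p = 0.492). *Lypd8l*, a paralog of *Lypd8* chosen after its values were seen, was at 28.16, 19.24 and 7.69 TPM in the Trp53fl/fl tumors against 47.62, 60.56 and 46.79 TPM in VP tumors. On the log2 scale it differed by 1.60 (limma adjusted p = 0.278).

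Some antimicrobial products of Paneth-type cells were at lower values in the VP tumors, as *Reg4* was. *Lyz1*, the Paneth cell lysozyme, was at 3146, 2406 and 1500.02 TPM in the Trp53fl/fl tumors against 795, 304 and 1713 TPM in VP tumors, with overlap (log2 fold change -1.59, limma adjusted p = 0.362). *Ang4* and *Itln1*, an antimicrobial ribonuclease and a lectin, were chosen after their values were seen and differed by -2.62 (limma adjusted p = 0.289) and -1.89 (limma adjusted p = 0.341) on the log2 scale. The 9 Paneth cell markers summed to 16651, 9658 and 4814 TPM in the Trp53fl/fl tumors and to 3908, 2487 and 7087 TPM in the VP tumors. Of these, 8 passed the filter, none had a limma adjusted p under 0.05, and *Ang5* was listed at 0 in every tumor. At an unadjusted p under 0.05, none were higher and 2 lower, against 4.51% and 8% of all genes tested. *Defa24*, an alpha-defensin, was the most abundant of them and differed by -1.48 on the log2 scale (limma adjusted p = 0.445). Of the 8, 7 had a lower mean log2 value in the VP tumors, as did 9187 of all 15117 genes tested. The other, *Mmp7*, was at 1065 ± 288 TPM (SD, n = 3) in the Trp53fl/fl tumors against 1129 ± 139 TPM (SD, n = 3) in VP tumors. It differed by 0.11 on the log2 scale (limma adjusted p = 0.832). Trp53fl/fl replicate 1, the tumor with the highest Paneth sum, was also the Trp53fl/fl tumor with the highest *Reg3g* and *Saa3*. Within the VP genotype the tumor with the highest Paneth sum, replicate 3, was not the highest for *Reg3g* or *Saa3*. The part of these cells in the *Reg3g* values was not tested.

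Other acute-phase genes included 1 that rose. *Cfb*, complement factor B, was at 72.59, 70.67 and 70.54 TPM in the Trp53fl/fl tumors against 165.14, 169.72 and 130.96 TPM in VP tumors, a difference of 1.10 on the log2 scale (SE 0.12, limma adjusted p = 0.0318). It was the only one of 16 acute-phase genes tested with an adjusted p under 0.05, and leaving out single tumors gave limma adjusted p-values of 0.0283 to 0.165, under 0.05 only without VP replicate 3. At an unadjusted p under 0.05, 7 were higher and none lower, against 4.51% and 8% of all genes tested. The median log2 fold change of the list was 0.58, against -0.07 for all genes tested. *Lrg1*, an acute-phase glycoprotein, was at 166 ± 81.3 TPM (SD, n = 3) in the Trp53fl/fl tumors against 313 ± 73.4 TPM (SD, n = 3) in VP tumors (limma adjusted p = 0.366). The metallothioneins *Mt1* and *Mt2* differed by 0.63 (limma adjusted p = 0.538) and 0.03 (limma adjusted p = 0.990) on the log2 scale, and transferrin, listed as *Trf*, one of 0.53 (limma adjusted p = 0.370).

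Neutrophil transcripts were higher in the VP tumors, as *Reg3b* and *Saa3* were. The 17 neutrophil markers summed to 749, 422 and 598 TPM in the Trp53fl/fl tumors and to 2139, 2095 and 1254 TPM in the VP tumors, without overlap. All 14 that passed the filter had a higher mean log2 value in the VP tumors, as did 5930 of all 15117 genes tested. The median log2 fold change of the 14 was 1.62, against -0.07 for all genes tested. At an unadjusted p under 0.05, 10 of the 14 were higher and none lower, against 4.51% and 8% of all genes tested. Of the 14, 1 had a limma adjusted p under 0.05. That gene, *Ngp*, a granule protein of immature neutrophils, rose from 0.81, 0.21 and 0.62 TPM to 48.44, 18.17 and 32.08 TPM (log2 fold change 4.37, SE 0.35, limma adjusted p = 0.00804, and 0.0513 without Trp53fl/fl replicate 3). *S100a8* and *S100a9*, the calprotectin subunits, differed by 1.97 and 1.73 on the log2 scale, each with a limma adjusted p of 0.182. *Retnlg* was at 18.85 to 41.81 TPM in the Trp53fl/fl tumors and at 147.5 to 232.5 TPM in the VP tumors (limma adjusted p = 0.0521), and *Ly6g* differed by 0.21 on the log2 scale (limma adjusted p = 0.806). Of the same 17 markers, *Elane* was listed at 0 in 5 of 6 tumors and *Mpo* did not exceed 0.36 TPM. The part of neutrophils in the *Lcn2* value, the only one of the 10 genes known as a neutrophil granule product, was not tested.

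**Figure D5:**
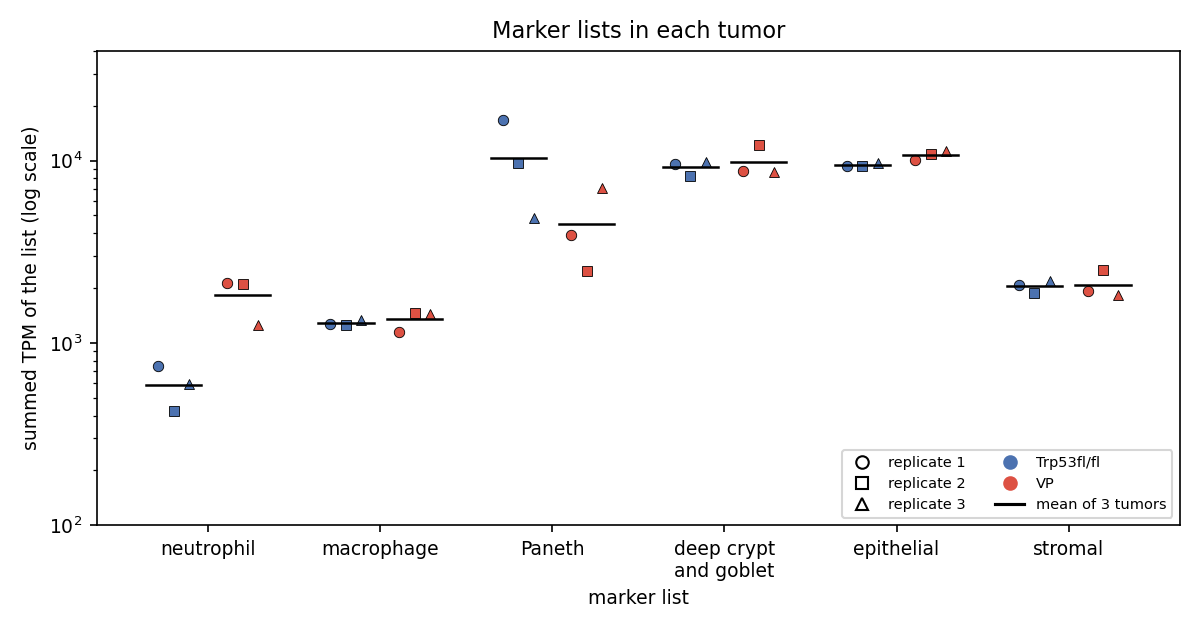
Symbols give the summed TPM of 6 marker lists in each tumor on a log scale, with a bar at the mean of 3 tumors. Neutrophil sums are higher in every VP tumor, pan-epithelial sums are slightly higher in every VP tumor, and the other lists overlap.

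Sums of 3 lists described above were likewise higher in every VP tumor. The IL-22, IL-17 and IL-6 signals summed to 923 to 1070 TPM in Trp53fl/fl tumors and 1090 to 1280 TPM in VP tumors. In the same order, other epithelial antimicrobial genes gave 15849.5 to 19007.7 TPM and 20210.1 to 25768.5 TPM. Other acute-phase genes gave 1701 to 2456 TPM and 2619 to 4828 TPM. The marker lists given next showed no such separation. Macrophage markers summed to 1261 to 1336 TPM in the Trp53fl/fl tumors and to 1150 to 1453 TPM in the VP tumors, and stromal markers to 1886 to 2187 TPM and 1830 to 2506 TPM. Distal colon position markers were at 173 to 268 TPM and 200 to 275 TPM, and small intestinal enterocyte markers at 33.2 to 58.6 TPM and 34.5 to 55.02 TPM. Hepatocyte markers, which bear on *Saa1* and *Saa2*, summed to 55.1 to 97.1 TPM and 56.9 to 95.8 TPM, with *Ttr* at 21.48 to 62.27 TPM, *Alb* at 11.05 to 54.6 TPM, *Apob* at 2.71 to 11.83 TPM and *Fgb* at 0.1 TPM or less. The 15 pancreatic acinar markers, which bear on *Reg1* and *Reg3a*, summed to 432 to 581 TPM and 261 to 586 TPM. Most of this came from *Pnliprp1* at 45.58 to 375.38 TPM, *Cela1* at 127.93 to 246.83 TPM and *Clps* at 26.07 to 83.67 TPM, while 10 markers stayed under 1 TPM in every tumor, with *Prss1* and *Prss3* listed at 0. None of the macrophage, stromal, distal colon, enterocyte, hepatocyte, acinar, goblet, mature colonocyte and pan-epithelial lists held a limma adjusted p under 0.05. At an unadjusted p under 0.05, 2 of 12 macrophage and 2 of 12 pan-epithelial markers were higher and none lower. Of 12 stromal markers, 2 were lower and none higher. Also higher were 1 of 4 acinar, 1 of 4 hepatocyte, 1 of 5 enterocyte and 1 of 13 colonocyte markers. Also lower were 1 of 4 acinar, 1 of 12 goblet and 1 of 13 colonocyte markers. None of 3 distal colon markers passed. The shares of all genes tested were 4.51% higher and 8% lower.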

How the data were processed

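The table covers colorectal tumors of 2 genotypes, 3 each, after AOM and DSS. The labels number the tumors and name no animals, so they do not say whether each tumor came from a different mouse. The p-values weigh the difference between genotypes against the spread of these tumors within a genotype. Poly(A)-selected RNA was sequenced from both ends. The authors deposited TPM per gene to 2 decimals, and their processing notes name HISAT2, StringTie and mm9, without versions. TPM are scaled to a fixed total, so that a change in abundant transcripts shifts the rest, and the depth is unknown. Of the gene IDs, 96.2% were found in GENCODE M21 (GRCm38), from which positions were taken, since the table holds no coordinates. Promoter windows came from RefSeq (GRCm38.p6), in which all 10 genes were found. Coding sequences were aligned with Biopython 1.88.

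Genes with 1 TPM or more in 3 or more tumors (15117) were fitted on the log2(TPM + 1) scale with limma 3.58.1 in R 4.3.3 (empirical Bayes with trend, Benjamini-Hochberg adjustment over all genes tested). This scale understates the change of weakly expressed genes. The fit was tested on simulated data. An exact test of 3 against 3 tumors cannot go below p = 0.1.

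The 10 genes and the gene lists were chosen with earlier results of these data known. By rule, all 10 genes, *Trp53*, the genes of each list with an adjusted p under 0.05, up to 4 others of its highest mean TPM, and the 5 genes most like *Reg3b* were named. Fewer than 4 are given for some lists, and the genes *Il6*, *Osm*, *Il6st*, *Jak1*, *Il22*, *Il22ra1*, *Lypd8l*, *Ang4*, *Itln1*, *Clca1*, *Camp*, *Ltf*, *Elane*, *Mpo*, *Ang5*, *Fgb*, *Prss1* and *Prss3*, outside the rule, were chosen after their values were seen. Alternatives changed the pseudocount (0.1), the filter (none, or a mean of 5 TPM or more), the scaling (quantile normalization, median-of-ratios, centring on epithelial markers), the fit (a replicate block, no trend) and the threshold (0.1), summed *Saa1* with *Saa2*, and left out single tumors. The lists held 225 genes, of which 2 had no row.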

Additional observations from a re-analysis of the deposited data

How the results depend on the processing

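The log2 fold changes of *Reg3b*, *Reg3g*, *Saa3*, *Lcn2* and *Lypd8* stayed above 0, and those of *Reg4* and *Saa1* below 0, under all 14 other fits. The value of *Saa2* turned in 1 of 13. *Reg3b* ranged from 2.69 to 3.18, *Reg3g* from 1.59 to 2.97, *Reg4* from -0.88 to -0.50, *Saa3* from 0.94 to 1.88, *Lcn2* from 0.42 to 1.06 and *Lypd8* from 0.45 to 0.82. Summing *Saa1* and *Saa2* kept the value of *Saa1*, -0.27.

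The number of all genes with a limma adjusted p under 0.05, 25 as reported, was 7 without the filter, 41 with centring on epithelial markers, 44 at a threshold of 0.1, and 6 to 28 with 1 tumor left out. The split was 12 higher and 13 lower as reported, 12 and 8 with median-of-ratios rescaling, and 13 and 28 with centring on epithelial markers, which brought the median over all genes tested from -0.07 to -0.24. Of the 10 genes, 1 was called as reported, 0 without the filter and 0 to 1 with 1 tumor left out. The number of those genes whose tumors did not overlap, 4 as reported, was 2 with centring on epithelial markers and 4 to 6 with 1 tumor left out. Of the genes on the lists, 2 were called as reported, 0 without the filter, 1 without the trend, and 0 to 5 with 1 tumor left out. Centring on epithelial markers turned the values of *Stat3* to -0.11, of *Il18* to -0.073, of *Mt2* to -0.14 and of *Apob* to -0.078, and median-of-ratios rescaling turned that of *Spink4* to 0.059. Leaving out single tumors gave -0.041 to 0.13 for *Stat3*, -0.019 to 0.23 for *Il18*, -0.61 to 0.75 for *Mt2*, -0.18 to 0.48 for *Ly6g*, -0.40 to 0.49 for *Apob* and -0.18 to 0.15 for *Spink4*. Except where the filter, the threshold or the number of tumors was itself changed, the cause was not tested.

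With the replicate number as a block, 10 of all genes, 1 of the 10 genes and 1 gene on the lists were called. Over all genes tested, same-numbered tumors did not deviate together, with correlations of 0.02, -0.05 and 0.02. These correlations do not settle it for single genes. Under the block the SE went from 0.26 to 0.14 for *Reg3b*, from 0.71 to 0.47 for *Reg3g* and from 0.45 to 0.29 for *Saa3*. For *Reg4* it went from 0.21 to 0.23. The labels do not say that same-numbered tumors are paired. *Trp53* (limma adjusted p = 0.0883) and *Cfb* (limma adjusted p = 0.101) missed the threshold under the block.

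Depth is unknown, 3 tumors per genotype limit the precision, and values under 1 TPM rest on 2 decimals.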
